A study of Rattus norvegicus with 2 samples.

Results

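Transcripts of ion channel genes were counted in poly(A)-selected RNA of RBL-2H3, a cell line from a rat basophilic leukemia that serves as a model of mast cells and basophils. One group was 1 library of untreated cells and the other 1 library of cells incubated with IgE. Both carry the wild-type genotype label, and the labels name neither a dose, a duration nor an added antigen. Being a leukemia line, the cells stand in for primary mast cells only in part. The genes were taken by symbol: potassium channel genes (Kcn), transient receptor potential genes (Trpa, Trpc, Trpm and Trpv, with Trpm4 left out), voltage-gated calcium channel genes (Cacna, Cacnb and Cacng), the chloride families Clcn and Clic, anoctamins (Ano), the volume-regulated anion channel genes (Lrrc8), voltage-gated sodium channel genes (Scn) and Piezo genes. This gave 56 of the 14913 distinct gene names in the table. The RefSeq gene table (GRCr8) holds 189 symbols of this pattern, and the others were not analysed here.

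The channels named here pass ions through cell membranes or help others to do so. In mast cells, cross-linking of the IgE receptor empties calcium stores and opens calcium entry channels, and potassium efflux through potassium channels and chloride flux through anion channels hold the membrane voltage that drives calcium entry. Degranulation also involves changes in cell volume, which volume-regulated anion channels counter, and acidification of granules and endosomes, which CLC chloride-proton exchangers serve.

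The name pattern is wider than the ion channels of potassium, calcium and chloride. It also takes Piezo1, a mechanically gated cation channel, Scn3b, a beta subunit of sodium channels, and Trpc4ap, a protein named for binding TRPC4 that is not itself a channel. Several Clcn proteins are exchangers, Clic proteins exist in soluble and membrane forms, and some anoctamins move lipids between membrane leaflets. Of 20 symbols listed for their known place in mast or immune cells, 13 were in the table. Kcnn4, Kcna3, Trpm2, Trpv4, Trpc5, Cacna1c and Cacna1d were not analysed here.

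The 2 libraries held 20917968 (untreated) and 26268330 (IgE) counted reads, so a gene at the same level has more reads in the IgE library, and CPM (reads scaled to a common library size, with TMM scaling) is used for comparison. Reads are not scaled by gene length, so neither reads nor CPM rank the levels of different genes. All 8 mast cell and basophil markers looked up, among them Kit, Ms4a2 and Hdc, were above 20 reads, at a summed 6808 CPM untreated and 6966 CPM with IgE. Of the other marker lists, 5 of 9 neuronal, 1 of 8 muscle, 3 of 6 macrophage and 1 of 5 epithelial genes were in the table, at summed levels of 49.7 and 46.1, 23.6 and 22.9, 5.48 and 3.21, and 0.238 and 0.0382 CPM. Ribosomal protein genes (66 names) had a median log2 fold of 0.29 and the 13 mitochondrial genome transcripts one of 0.16.

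Of the 56 genes, 43 (76.8%) had 20 or more reads over both libraries, against 81.2% of all names. A ratio is given only for those 43. In RefSeq, 15 of them overlap a protein-coding gene, and without a known strand setting shared reads could be counted for either gene. They are Ano8, Cacna2d4, Clcn2, Clcn3, Kcnab2, Kcnh7, Kcnj13, Kcnk6, Lrrc8a, Piezo1, Trpc2, Trpc4ap, Trpm8, Trpv2 and Trpv3. Together the 56 genes made up 0.194% of all untreated reads, and with IgE 0.195%. Each fold below is a log2 ratio of IgE to untreated on the CPM scale with a prior of 0.5 counts, with a 95% interval (exact, Clopper-Pearson) that covers counting error only. With 1 library a condition no difference has a replicate check, and no test across samples was made.

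The channel transcripts were close to level between the libraries. None of the 43 was at least 2-fold higher with IgE, where 1.33% of the 12102 genes over the same minimum were. One, Clcn2, was at least 2-fold lower, or 2.33% of the 43 against 1.30% of all genes. Under a 1.5-fold rule Kcnj13 was higher (2.33% against 3.66% of all genes), and Clcn2, Kcne3 and Scn3b were lower (6.98% against 3.53%). Kcne3, Scn3b and Kcnj13 had 20, 21 and 41 reads over both libraries, and their counting intervals include no difference.

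The median log2 fold of the 43 genes was -0.06, with quartiles of -0.26 and 0.07, beside a median of 0.00 and quartiles of -0.12 and 0.14 over all genes. Of the 43, 25 (58.1%) were below 0, beside 48.9% of all genes. For the 22 channel genes with 500 or more reads the median was 0.00 and the range -0.42 to 0.16, with 11 above and 11 below 0. All genes with 500 or more reads had an SD of the log2 fold of 0.17, and these 22 had one of 0.16. The counting interval lay wholly above 0 for Clic1, Trpc1 and Trpv2, which is 6.98% of the 43 against 19.96% of all genes. It lay wholly below 0 for 8, Ano6, Cacna1a, Clcn2, Clcn5, Clcn6, Clcn7, Lrrc8b and Piezo1, which is 18.6% against 18.6% of all genes. Such an interval tells only that the 2 libraries differ by more than the sampling of reads.

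**Figure D1:**
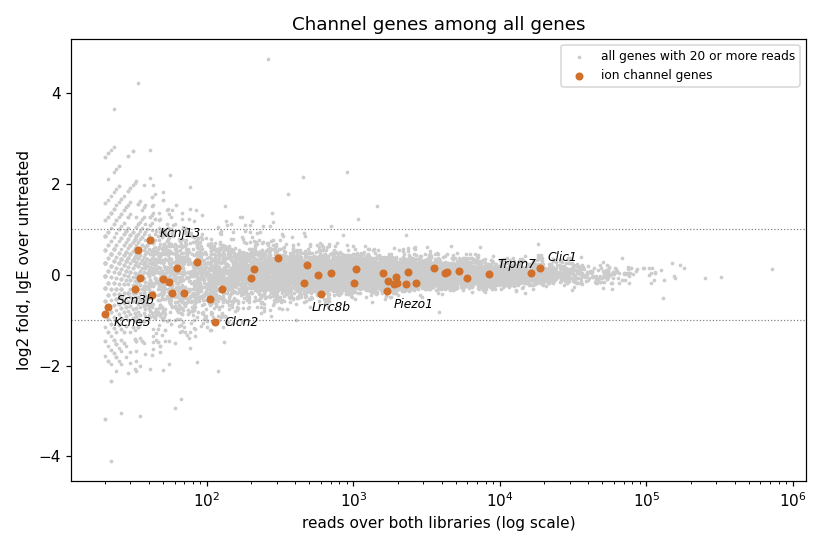
Log2 fold of IgE over untreated (vertical axis) against reads over both libraries (log horizontal axis) for all 12102 genes with 20 or more reads (grey) and the 43 genes of the channel set (orange), with dotted lines at 2-fold. Clcn2, at 114 reads, is the one orange point past a dotted line, and the 22 channel genes with 500 or more reads lie between -0.42 and 0.16.

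The stretches before 4 of these genes are shown because they span what the set holds: Clcn2 is the one gene 2-fold apart, Kcnj2 and Kcnj13 are inward rectifiers with many and few reads, and Ano5 has many reads without a CG-rich stretch. Each is the 250 bases that precede the RefSeq gene start, 5′ to 3′, with every CG pair in capitals. RefSeq holds this stretch for 47 of the 56 genes on GRCr8, which is not the rn6 build named for the counts.

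Clcn2, GRCr8 chr11:93702344-93702593, plus strand: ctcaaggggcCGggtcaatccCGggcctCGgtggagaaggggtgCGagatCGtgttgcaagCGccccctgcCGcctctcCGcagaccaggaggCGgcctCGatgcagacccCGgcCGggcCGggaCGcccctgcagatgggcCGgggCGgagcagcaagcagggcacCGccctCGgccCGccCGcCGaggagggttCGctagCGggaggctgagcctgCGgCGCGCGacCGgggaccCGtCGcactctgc
Kcnj2, GRCr8 chr10:96559975-96560224, plus strand: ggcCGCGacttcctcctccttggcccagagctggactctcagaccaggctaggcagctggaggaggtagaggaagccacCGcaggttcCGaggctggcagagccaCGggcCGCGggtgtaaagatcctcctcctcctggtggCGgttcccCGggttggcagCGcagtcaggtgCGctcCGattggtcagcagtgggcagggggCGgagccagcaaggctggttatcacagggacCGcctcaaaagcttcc
Kcnj13, GRCr8 chr9:95518987-95519236, minus strand: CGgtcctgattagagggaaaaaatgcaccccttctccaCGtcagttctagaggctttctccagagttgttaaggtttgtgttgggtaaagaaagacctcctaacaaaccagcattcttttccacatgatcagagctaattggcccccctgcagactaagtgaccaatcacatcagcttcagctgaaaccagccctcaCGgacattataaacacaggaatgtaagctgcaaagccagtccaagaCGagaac
Ano5, GRCr8 chr1:110222161-110222410, plus strand: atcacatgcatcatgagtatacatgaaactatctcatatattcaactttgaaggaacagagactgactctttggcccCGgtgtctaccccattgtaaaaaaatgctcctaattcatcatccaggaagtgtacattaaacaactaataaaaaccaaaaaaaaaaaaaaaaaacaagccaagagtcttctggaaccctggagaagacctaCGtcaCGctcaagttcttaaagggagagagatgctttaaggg

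The Clcn2 stretch holds 30 CG pairs, that of Kcnj2 14, that of Kcnj13 4 and that of Ano5 3. A count of 10 or more CG pairs, the letters CG read on either strand, was found in 38.4% of the 27457 stretches of this length in RefSeq. Among channel genes with 500 or more reads it was found in 16 of 20 (80.0%), beside 82.3% of all genes with as many reads. Among those with 20 or more but under 500 reads it was found in 7 of 15 (46.7%), beside 56.8% of all genes in that range, and among those under 20 reads in 5 of 12 (41.7%). The well-counted channel genes thus carried CG pairs about as often as other well-counted genes did, which is a description of these windows and not of any factor that binds there. Ano5, Ano10, Trpv2 and Lrrc8d were the well-counted genes with fewer than 10, at 3, 5, 7 and 8.

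**Figure D2:**
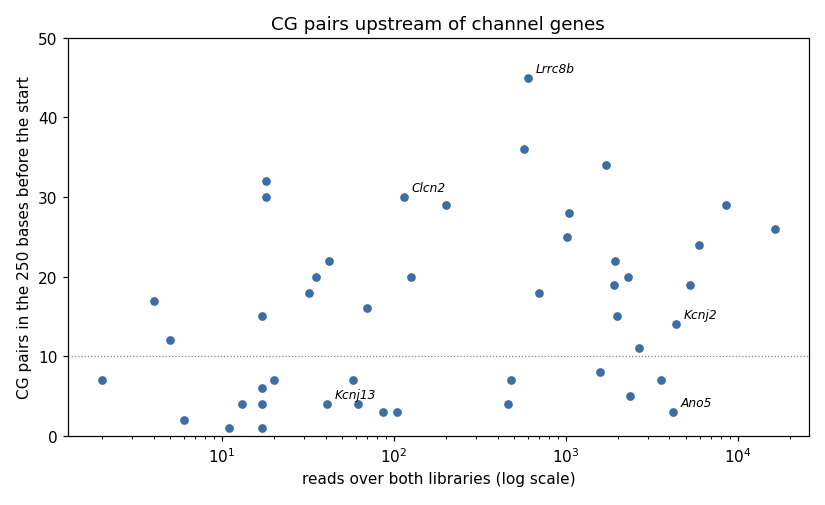
CG pairs in the 250 bases before the gene start (vertical axis) against reads over both libraries (log horizontal axis) for the 47 channel-set genes with a RefSeq stretch, with a dotted line at 10. The stretch with the most CG pairs, 45, is that of Lrrc8b, and Ano5 combines 4220 reads with 3 CG pairs.

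The potassium channel pore genes comprised 6 inward rectifiers, 6 two-pore domain, 2 voltage-gated and 2 calcium- or sodium-activated genes, and Kcnj2 held most of their reads. Kcnj2 encodes Kir2.1, which sets a negative resting voltage, and had 1898 reads untreated and 2480 with IgE, or 90.5 and 94.7 CPM (log2 0.07, interval -0.02 to 0.15). The 2 values differ by no more than the sampling of reads. The other inward rectifiers had 70 reads or fewer over both libraries: Kcnj6, a G protein-gated subunit, at 36 and 34 (-0.40, -1.12 to 0.32), Kcnj14 at 26 and 36 (0.15, -0.62 to 0.94) and Kcnj10 at 16 and 19 (-0.07, -1.11 to 0.98).

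Kcnj13, which encodes Kir7.1, had the highest log2 fold of the 43 genes, with 13 reads untreated and 28 with IgE (0.77, -0.21 to 1.86). Its interval includes no difference. In RefSeq the span of Kcnj13 overlaps that of Gigyf2, which had 2416 and 2466 reads (-0.29, -0.37 to -0.21), and without a known strand setting the reads of the 2 genes cannot be told apart where they overlap. Kcnj9 had 8 and 9 reads.

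The two-pore domain potassium channels, which carry background potassium current, were all low in reads. Kcnk6 had 88 and 120 reads (log2 0.13, -0.28 to 0.54) and Kcnk13 had 91 and 109 (-0.06, -0.47 to 0.36). Kcnk4, a mechanically sensitive member, had 56 and 48 (-0.54, -1.13 to 0.04), and Kcnk5, sensitive to external pH, had 22 and 20 (-0.45, -1.41 to 0.48). All 4 intervals include no difference. Kcnk7 had 5 and 8 reads and Kcnk18 had 0 and 2.

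Of the voltage-gated potassium channel genes 2 were in the table, both of the Kcnh family. Kcnh7 had 63 reads in each library and Kcnh4 had 16 in each, which at the greater depth of the IgE library gives log2 folds of -0.32 (-0.85 to 0.21) and -0.31 (-1.41 to 0.78). Calcium- or sodium-activated pore genes were under the minimum. Kcnn1, a small-conductance calcium-activated channel, had 3 and 13 reads, and Kcnt2, a sodium-activated channel, had 10 and 7.

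Among the auxiliary potassium subunits, Kcnab2 had the most reads. It encodes a cytosolic beta subunit with an oxidoreductase fold and had 2711 reads untreated and 3241 with IgE, 129.2 and 123.8 CPM (log2 -0.06, -0.14 to 0.01). Its relative Kcnab1 had 195 and 283 reads, 9.29 and 10.8 CPM (0.22, -0.05 to 0.49). Of the small single-span KCNE subunits, Kcne2 had 26 and 29 reads (-0.16, -0.98 to 0.66) and Kcne3 had 12 and 8 (-0.86, -2.40 to 0.51), the latter just at the minimum. Kcnip2, a calcium-binding partner of Kv4 channels, had 5 and 0 reads, and Kcnmb3, a BK channel beta subunit, had 1 and 5. A count of 0 in the IgE library allows a level of up to 0.114 CPM, for counting error only.

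**Figure D3:**
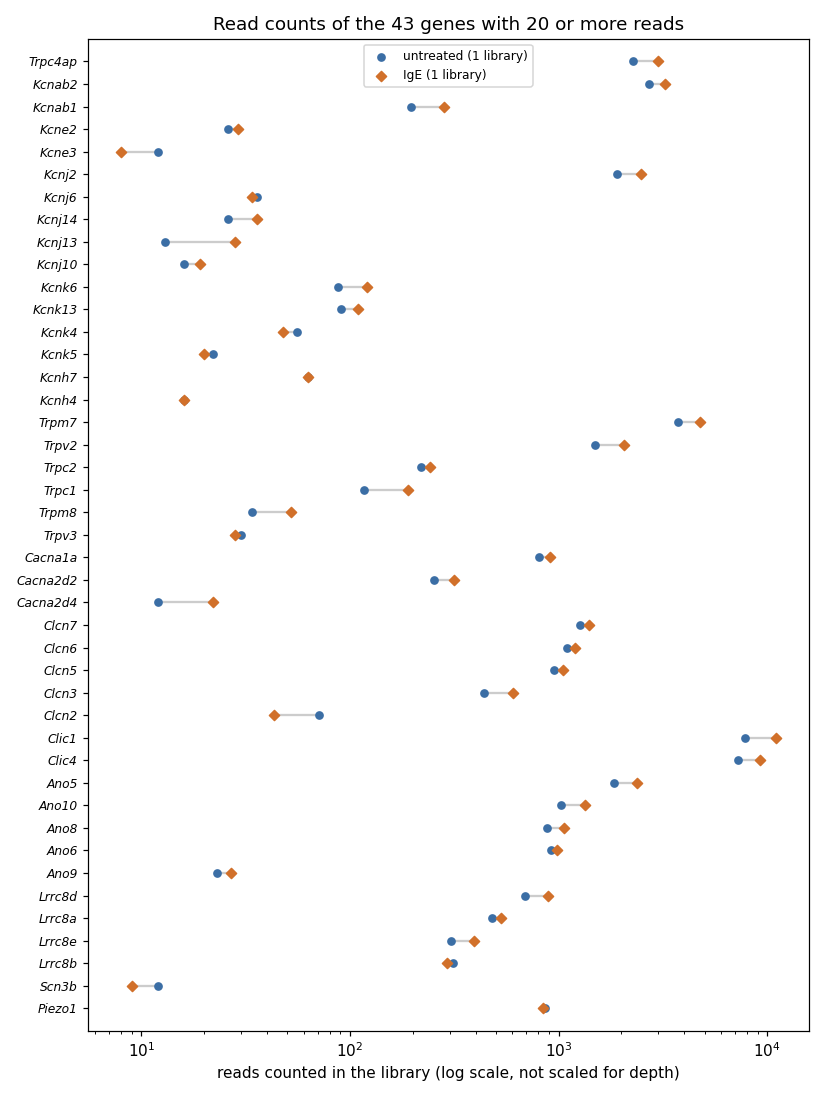
Reads counted in the untreated (blue circles) and the IgE library (orange diamonds) for the 43 genes with 20 or more reads over both, on a log axis and not scaled for depth. Clic1 and Clic4 have the most reads, at 7229 to 10974, and Clcn2, Piezo1 and Lrrc8b are among those with fewer reads in the deeper IgE library.

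The 8 TRP cation channel genes of the set together had 5656 reads untreated and 7312 with IgE, or 269.5 and 279.2 CPM. Trpm7 took 66.3% and 64.7% of these reads, a sum without Trpm4, which the set leaves out. Trpm7, a channel for magnesium and calcium fused to a kinase domain, had 3748 and 4734 reads, 178.6 and 180.8 CPM (log2 0.02, -0.04 to 0.08). Trpv2, a calcium-permeable channel of many leukocytes, had 1496 and 2057 reads, 71.3 and 78.6 CPM (0.14, 0.04 to 0.24). The Trpm7 libraries agree within counting error, while for Trpv2 the IgE library was slightly higher. The Trpv2 difference is no larger than the 0.17 SD of all genes with 500 or more reads.

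The canonical TRP genes had fewer reads. Trpc1 had 117 reads untreated and 189 with IgE, 5.58 and 7.22 CPM, the highest log2 fold among channel genes with 100 or more reads (0.37, 0.03 to 0.72). Trpc2, a pheromone-signalling channel of the rodent vomeronasal organ, had 219 and 243 reads (-0.17, -0.44 to 0.10), and its RefSeq span overlaps that of Xndc1. Trpc6 had 0 and 4 reads, and the 0 allows up to 0.143 CPM in the untreated library.

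The remaining TRP genes rested on few reads. The cold-sensing Trpm8 had 34 and 52 (log2 0.29, -0.36 to 0.96), the warmth-sensing Trpv3 had 30 and 28 (-0.41, -1.22 to 0.37), and the calcium-selective Trpv6 had 12 and 5. Trpc4ap, taken by its name, had 2272 and 2990 reads (0.08, 0.00 to 0.16).

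The voltage-gated calcium channel genes comprised 2 pore subunits and 4 auxiliary ones. Cacna1a, the pore of the P/Q-type channel of nerve terminals, had 802 reads untreated and 907 with IgE, 38.2 and 34.6 CPM (log2 -0.14, -0.28 to 0.00, with the upper bound below 0 before rounding). Of the 9 neuronal markers, 5 had 20 or more reads, with a median log2 fold of 0.02, and 3 of the 5 were above 0. Dlg4 had 792 and 891 reads (-0.15, -0.29 to -0.01), an interval below 0. Map2 had 101 and 128 (0.02, -0.37 to 0.41), Syn1 97 and 120 (-0.01, -0.41 to 0.39), Syp 37 and 47 (0.03, -0.63 to 0.69) and Tubb3 15 and 22 (0.23, -0.78 to 1.28). The intervals of these others include no difference. The part of the neuronal markers in the Cacna1a value was not tested. Cacna1s, the skeletal muscle pore, had 4 and 7 reads. Of the muscle markers Ryr1, a calcium release channel, was in the table, with 495 and 600 reads (-0.04).

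Among the auxiliary subunits, which help the pore to reach the membrane, Cacna2d2 had 254 and 315 reads, 12.1 and 12.03 CPM (log2 -0.01, -0.25 to 0.24). Cacna2d4 had 12 and 22 reads (0.54, -0.52 to 1.70), an interval that includes no difference. Cacna2d1 had 9 in each library and Cacnb2 had 8 and 10. Scn3b, the one sodium channel gene, had 12 and 9 reads (-0.70, -2.16 to 0.64).

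The CLC chloride family held the one gene that was 2-fold apart, and 4 of its 5 genes were below 0, where 48.9% of all genes were. Clcn2, an inwardly rectifying chloride channel of the plasma membrane, had 71 reads untreated and 43 with IgE, 3.38 and 1.64 CPM (log2 -1.03, interval -1.62 to -0.48). It thus had fewer reads in the deeper library. In RNA of a whole culture, fewer cells that carry a transcript and less of it in each cell cannot be told apart. Among genes with 100 or more reads Clcn2 was 1 of 30 channel genes at least 2-fold lower, or 3.33% of them. Of all 10367 genes over that minimum 0.145% were. The 2 shares are not matched for depth: Clcn2, at 114 reads, lies near the minimum, while 8369 of all genes had 500 or more. With a prior of 5 counts no channel gene was 2-fold lower, so the place of Clcn2 beyond the limit rests on that choice.

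In the authors' deposited table Clcn2 had a log2 fold of -1.05, a p of 0.00291 and an adjusted p of 0.295. These p-values were recomputed with a dispersion fixed at 0.01, so they rest on an assumed spread and not on replicates. Clcn2 was the one of the 56 genes that the authors' deposited table of selected genes listed (1.79%, against 3.02% of all names), and the other 55 had an adjusted p of 1 in the authors' deposited table of all genes. In RefSeq the span of Clcn2 overlaps that of Fam131a, which had 37 and 58 reads (0.33, -0.29 to 0.96), so that shared reads could be counted for either gene.

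The other CLC genes encode exchangers of endosomes and lysosomes. Clcn7, which with Ostm1 serves lysosomes, had 1264 and 1392 reads, 60.2 and 53.2 CPM (log2 -0.18, -0.29 to -0.07). Clcn6, of late endosomes, had 1100 and 1194 reads, 52.4 and 45.6 CPM (-0.20, -0.32 to -0.08), and Clcn5, of early endosomes, 949 and 1045, 45.2 and 39.9 CPM (-0.18, -0.31 to -0.05). These 3 had nearly the same fold, and each interval lies below 0. The folds are close in size to the 0.17 SD of all genes with 500 or more reads. Clcn3, also endosomal, had 439 and 601 reads, 20.9 and 23.0 CPM (0.13, -0.05 to 0.31), an interval that includes no difference.

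The share of each gene in the reads of the 5 CLC genes in the set does not depend on the scaling between libraries. Clcn2 took 1.86% of CLC reads untreated (exact 95% interval 1.45 to 2.34) and 1.01% with IgE (0.729 to 1.35). Clcn3 took 11.5% (10.5 to 12.5) and 14.1% (13.0 to 15.1). The intervals of the 2 libraries do not overlap for either gene. They do overlap for Clcn5, Clcn6 and Clcn7, at 24.8% and 24.4%, 28.8% and 27.9%, and 33.1% and 32.6%. A share also moves with the other genes of the family, and the interval of the Clcn3 fold itself includes no difference (-0.05 to 0.31). Shares of this kind were not computed for all genes. By the counting interval of the fold, a different measure, 19.96% of all genes lay above 0 and 18.6% below. Ostm1, the partner of Clcn7, had 859 and 1056 reads (log2 -0.02, -0.15 to 0.11).

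**Figure D4:**
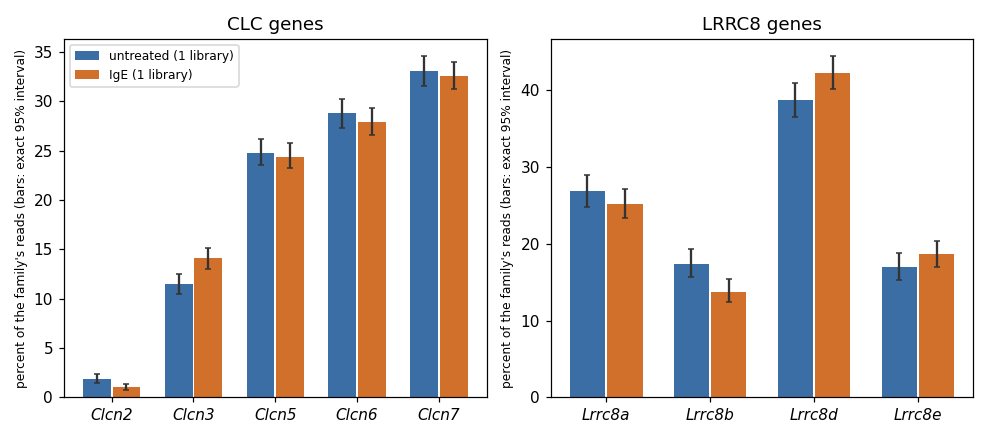
Percent of a family's reads that each gene took in the untreated (blue) and IgE (orange) library, with exact 95% binomial intervals as bars, for 5 CLC genes (left) and 4 LRRC8 genes (right). The Clcn2 share is 1.86% and 1.01%, the Clcn3 share 11.5% and 14.1%, and the Lrrc8b share 17.4% and 13.8%.

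Of all families in the set, the CLIC genes had the most reads. Clic1 had 7851 reads untreated and 10974 with IgE, 374.1 and 419.1 CPM (log2 0.16, 0.12 to 0.21), and Clic4 had 7229 and 9181, 344.5 and 350.6 CPM (0.03, -0.02 to 0.07). The Clic1 interval is narrow because of its reads, and the difference is no larger than the 0.17 SD of all genes with 500 or more reads. Clic3 had 8 and 9 reads.

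The anoctamin genes were level as a group, at 223.6 CPM untreated and 221.1 with IgE (log2 fold of the sum -0.02, -0.07 to 0.04). Ano6, the calcium-activated scramblase that exposes phosphatidylserine, was the lowest, at 915 and 986 reads, 43.6 and 37.7 CPM (-0.21, -0.34 to -0.08). Ano5, best known from skeletal muscle, had 1851 and 2369 reads (0.04, -0.05 to 0.13), Ano10 had 1027 and 1342 (0.07, -0.05 to 0.19), Ano8 had 876 and 1066 (-0.04, -0.17 to 0.09) and Ano9 had 23 and 27 (-0.09, -0.95 to 0.78). The interval of Ano6 alone lies below 0 in this family, and its fold is close in size to the 0.17 SD of all genes with 500 or more reads.

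The volume-regulated anion channel is a hexamer of LRRC8 subunits in which Lrrc8a is obligatory and the others set what passes. Lrrc8a had 481 reads untreated and 531 with IgE, 22.9 and 20.3 CPM (log2 -0.18, -0.36 to 0.00). Lrrc8b had 312 and 291 reads, 14.9 and 11.1 CPM (-0.42, -0.66 to -0.18), the lowest fold among channel genes with 500 or more reads, and is singled out after its values were seen. Lrrc8d had 693 and 892 reads (0.04, -0.10 to 0.19) and Lrrc8e had 304 and 393 (0.05, -0.17 to 0.27). Of the reads of these 4 genes, Lrrc8b thus took 17.4% untreated (15.7 to 19.3) and 13.8% with IgE (12.4 to 15.4). Lrrc8d took 38.7% (36.5 to 41.0) and 42.3% (40.2 to 44.5). Lrrc8b and Lrrc8d lie near each other in the RefSeq gene order, with 1 protein-coding gene between them. The Lrrc8b interval lies below 0, while that of Lrrc8d includes no difference. The Lrrc8b fold is larger in size than the 0.17 SD of all genes with 500 or more reads.

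Piezo1, the mechanically gated channel, had 863 reads untreated and 838 with IgE, 41.1 and 32.0 CPM (log2 -0.36, -0.50 to -0.22). Its span overlaps that of Ctu2 in RefSeq, which had 786 and 996 reads (0.02, -0.11 to 0.16). Without a known strand setting, reads from where these genes overlap cannot be told apart. The Piezo1 fold is larger in size than the 0.17 SD of all genes with 500 or more reads. In the authors' deposited table Piezo1 had a p of 0.0878 and an adjusted p of 1.

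**Figure D5:**
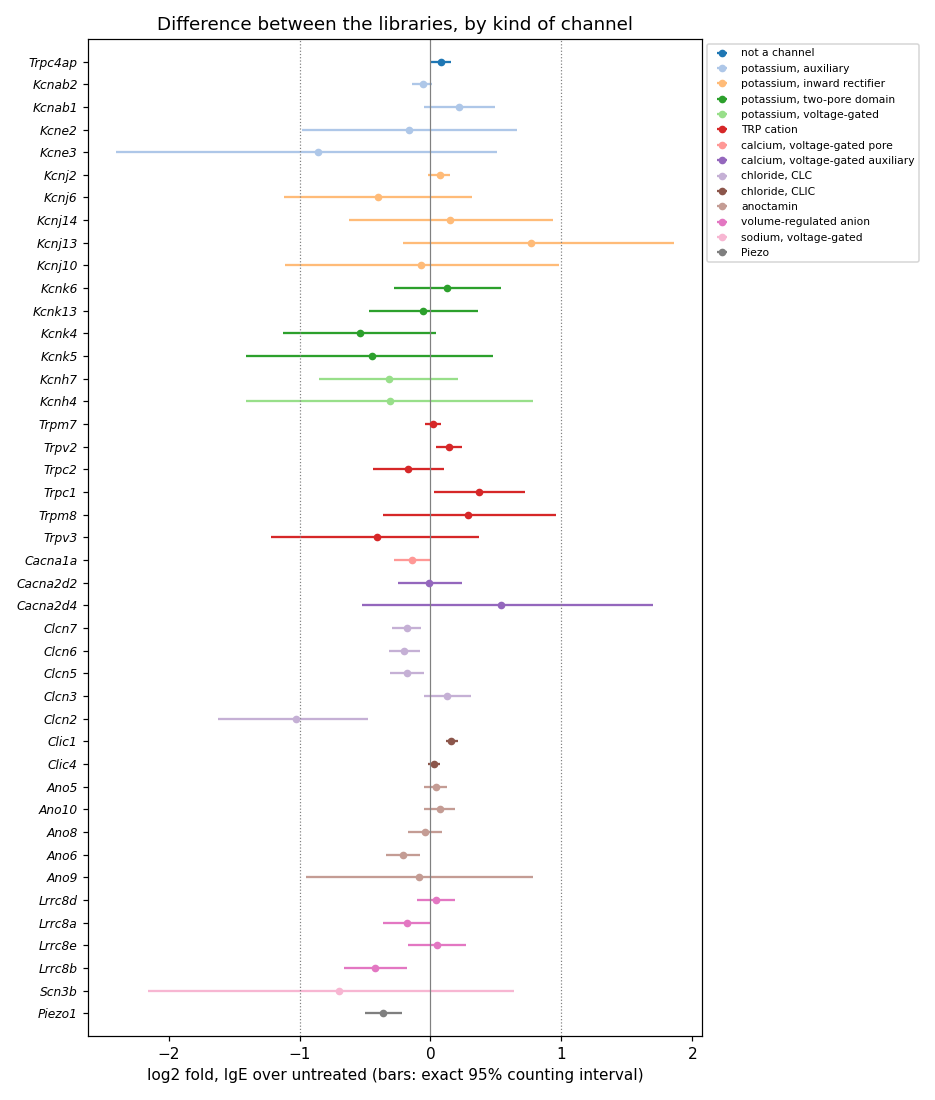
Log2 fold of IgE over untreated (horizontal axis) for the 43 genes with 20 or more reads, coloured by kind, with exact 95% counting intervals as bars and dotted lines at 2-fold. Clcn2 at -1.03 is the one point beyond a dotted line, and the widest interval is that of Kcne3, which had 20 reads.

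Other ion transport genes outside the name pattern were looked up as a list of 79, of which 52 had 20 or more reads. Of these 16 were above and 36 below 0, with a median log2 fold of -0.07, beside a median of 0.00 and 48.9% below 0 for all genes. Hvcn1, the voltage-gated proton channel, was at least 2-fold higher, with 13 and 45 reads (1.44, 0.56 to 2.49), and Hcn3, a pacemaker channel, at least 2-fold lower, with 16 and 9 (-1.10, -2.51 to 0.12). Those 2 are 1 higher and 1 lower of 52, on few reads, where 1.33% of all genes were higher and 1.30% lower by the same rule. The potassium-chloride cotransporter Slc12a7 had 329 and 309 reads (-0.41, -0.64 to -0.18), the mechanically gated Tmem63b 736 and 686 (-0.42, -0.57 to -0.27) and the proton-activated chloride channel gene Pacc1 316 and 325 (-0.28, -0.51 to -0.05). Other genes of the list had intervals wholly above 0. Atp1b3 had 1917 and 2871 reads (0.26, 0.18 to 0.35), and P2rx4 had 883 and 1241 (0.17, 0.05 to 0.30). Vdac1, Vdac2 and Vdac3 had log2 folds of 0.11, 0.15 and 0.17, also with intervals above 0. The sodium-potassium-chloride cotransporter Slc12a2 had one of 0.09 (0.03 to 0.14). The store-operated calcium entry pair Orai1 and Stim1 had log2 folds of 0.02 (-0.15 to 0.19) and -0.11 (-0.17 to -0.05). The Stim1 interval lies below 0, while that of Orai1 includes no difference. Ribosomal protein and mitochondrial transcripts were shifted upward in the same pair of libraries, as given above, and their part in the folds below 0 was not tested.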

How the data were processed

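Poly(A)-selected RNA was sequenced from 2 libraries, 1 a group, grouped by the treatment label. Per the file headers, the tables hold raw read counts for each gene name; the authors also deposited their own log2 fold, p-value and adjusted p for the comparison. From the submitters' processing notes come the tools HISAT2 2.1.0, fastp 0.23.0 and DESeq2 1.18.1 and the build rn6, with no roles. Neither the counting tool nor its strand setting is given in the sources used here. Of 16990 rows, identical repeats were kept once, leaving 14913.

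CPM and log2 folds were computed on the whole table with edgeR 4.0.16 (R 4.3.3), using TMM scaling and a prior of 0.5 counts, and reported where both libraries together gave at least 20 reads. Shares and read ratios carry exact Clopper-Pearson 95% intervals, for counting error only. With 1 library a group no test across samples was possible. The calculation was tested on simulated data. The authors' log2 folds and p-values were recomputed to within 4.67e-08 by an exact test in edgeR.

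The members and lists were chosen with earlier results of these data known. Named genes were the 3 with most reads in each kind of channel, those at least 1.5-fold apart, and 20 symbols known from mast or immune cells. The other members are given by their values. Alternatives were library totals, DESeq2 1.42.0 size factors, a prior of 5, other minimums, a 1.5-fold rule and a rule on the interval.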

Additional observations from a re-analysis of the deposited data

How the results depend on the processing

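Scaling by library totals or DESeq2 size factors, a minimum of 100 reads, or asking that the counting interval exclude no difference left the counts of channel genes at least 2-fold apart at 0 higher and 1 lower, with Clcn2 the one gene in each. A prior of 5 counts gave 0 lower. No minimum gave 4 higher and 3 lower, the added genes having under 20 reads, and a 1.5-fold rule gave 1 higher and 3 lower. The median log2 fold of -0.062 ranged from -0.071 (library totals) to -0.023 (minimum of 100 reads). All 111 alternative folds of the 37 named genes with a ratio stayed within the gene's counting interval, and 0 reversed a difference whose interval lay to one side of 0. This is a weak check, because the TMM factors were 1.0032 (untreated) and 0.9968 (IgE), so scaling by library totals could move a fold only slightly. The median of all genes was 0.0049, and -0.0042 with library totals. No paired analysis was possible because there is 1 library a group, which also means that leaving one out was not possible. Depth limits the weakly counted genes: the interval had a median width of 0.49 over the 43 genes and at most 0.49 over those with 500 or more reads, and the widest, that of a gene with 20 reads, was 2.91.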
